A study of Mus musculus with 2 samples.

Results

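Imprinted genes are described here as a set of 51 genes in which, in mouse, expression is known to come mainly from the allele of 1 parent. The members were taken by gene name, and all 51 matched a record in the GENCODE M21 annotation, which holds 55304 genes by symbol on the 21 chromosomes used. They lie in 19 imprinted loci on 11 chromosomes. Of the members, 43 are protein-coding and 8 are long noncoding RNA (lncRNA) genes. Open chromatin was read from DNase-seq, in which nuclei are treated with DNase I, an enzyme that cuts accessible DNA. A peak is a stretch with many cuts, and a footprint is a short run inside accessible DNA that is cut less than its surroundings.

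Imprinted loci carry control regions at which DNA methylation is set in the egg or the sperm and then kept on that parental copy in all tissues. At most loci the egg sets the mark, often at the promoter of a gene or noncoding RNA that is then active on the paternal copy. At a few, such as H19 and Igf2 or Dlk1 and Meg3, the sperm sets it in an intergenic region. In the adrenal gland, Igf2, Cdkn1c, H19, Dlk1 and Gnas are known for roles in growth of the cortex, its overgrowth or signalling by adrenocorticotropic hormone.

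The tissue was the adrenal gland, taken at 8 to 10 months from male B6CASTF1/J animals, which are F1 hybrids between C57BL/6J and CAST/EiJ. The single group has 2 biological replicates, each a pool of 6 biosamples made into 1 library, and both pools carry the same donor identifier in the labels. There was no control, treated or other-tissue group, so no difference between conditions could be tested. The deposited peak lists do not separate the parental copies, so a peak at an imprinted gene may come from either copy or from both. In a whole gland, fewer cells of a type and less open chromatin per cell cannot be told apart.

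The longer peak list held 117371 peaks in replicate 1 and 146307 in replicate 2, and these overlapped in 96584 shared regions. The footprint lists held 272595 and 319381 entries. No source used here states the sequencing depth, and signal is the authors' own value per peak. Markers of the cortex had a peak within 1 kb of a transcription start site (TSS) in both pools for 8 of 10 genes, Star with 5.44 and 6.52 (replicate 1 and replicate 2) among them, zona glomerulosa markers for 3 of 4, and chromaffin markers for 7 of 8. Hsd3b1 of the cortex list and Cyp11b2 of the zona glomerulosa list had none in either pool. Nr0b1 of the cortex list and Pnmt of the chromaffin list had one in replicate 2 alone. Endothelial and fibroblast markers had a TSS peak in both pools for 3 of 5 genes each, and macrophage markers for 1 of 5. Markers of hepatocytes and skeletal muscle had one for 1 of 4 each, and markers of kidney tubule and forebrain neurons for 0 of 4 each. The share was 61.9% over all protein-coding genes, so 3 of 5 is near it and such short lists say little on cell types.

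A TSS peak in both pools was present at 40 of the 51 imprinted genes (78.4%), and at 33.6% of all genes. Among protein-coding members it was 35 of 43 (81.4%), against 61.9% of all 21911 protein-coding genes. Among lncRNA members it was 5 of 8 (62.5%), against 26.5% of all 13355 lncRNA genes. Members have more annotated start sites, with a mean of 2.94 per gene against 1.39 in all genes, which gives more windows in which a peak can fall. With only the furthest upstream TSS of each gene, a choice made after seeing the data, 35 of 51 members (68.6%) and 32.6% of all genes had a peak in both pools, and 31 of 43 protein-coding members (72.1%) against 59.6% of protein-coding genes. Peg3 and Usp29, Snrpn and Snurf, and Peg10 and Sgce share a promoter and a peak, so the 40 members rest on 37 distinct regions. A footprint within 1 kb of a TSS was listed in both pools at 38 members (74.5%), against 31.5% of all genes, and at 33 of 43 protein-coding members (76.7%), against 59.7% of protein-coding genes.

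**Figure D1:**
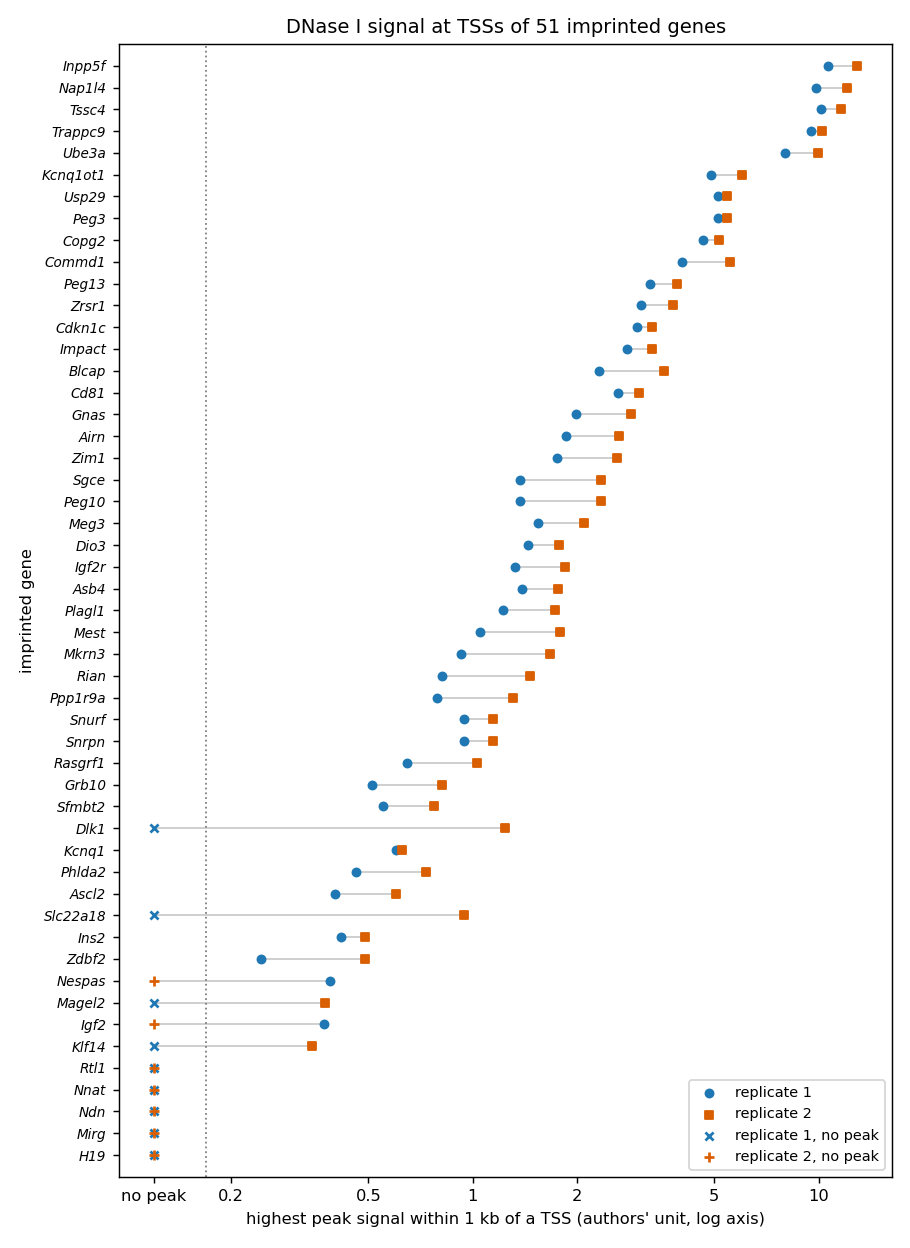
Highest peak signal within 1 kb of a TSS (horizontal log axis, the authors' unit) for each of 51 imprinted genes (rows, ordered by the mean of the pools) in replicate 1 (circles) and replicate 2 (squares); crosses at the left mark a pool with no peak. Among the 40 genes with a peak in both pools, signals run from 0.245 and 0.488 at Zdbf2 to 10.7 and 12.9 at Inpp5f, and 5 genes at the bottom have no peak in either pool.

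The genes Inpp5f, Nap1l4, Tssc4, Trappc9 and Ube3a stood above the rest, and each is known for imprinting that is limited to some tissues or to 1 of its promoters. Inpp5f, an inositol phosphatase gene whose internal promoter is the imprinted one, reached 10.7 in replicate 1 and 12.9 in replicate 2 at its first TSS. Nap1l4, a histone chaperone gene with placental imprinting, had 9.82 and 12.1. Tssc4, a neighbour of the Kcnq1 locus also imprinted in placenta, had 10.2 and 11.6. All 3 were higher in replicate 2, as were all members with a TSS peak in both pools. Trappc9, a vesicle trafficking gene with a maternal bias in brain, had 9.53 and 10.2. Ube3a, a ubiquitin ligase gene silenced on the paternal copy in neurons, had 8.01 and 9.97. The next gene in the order, Kcnq1ot1, was below all of them in both pools, with 4.90 and 6.03.

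Peg3 encodes a zinc finger protein, is active on the paternal copy and has an unusual first intron. Its TSS itself lay in a region that reached 2.17 in replicate 1 and 2.05 in replicate 2. Stronger regions followed inside the intron, with midpoints 850, 1790 and 2730 bp downstream. The first, which is also the strongest TSS peak of Usp29, a ubiquitin protease gene read from the same promoter in the other direction, had 5.11 and 5.44, the second 5.37 and 5.60, and the third 3.51 and 4.28. The second, at chr7:6728281-6728980 (mm10, as are all positions), is 700 bp wide and held 17 footprints in replicate 1 and 19 in replicate 2. As many were listed in 0.0135% of the 96584 shared regions in replicate 1 and in 0.00621% in replicate 2. The third, at chr7:6727381-6728000, held 11 in each pool. Wider regions can hold more footprints, and counts were not set per length.

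The intron is known for an array of binding sites of YY1, a zinc finger protein. A short YY1 consensus, ATGGCNG on either strand, matched 1 site each in the regions at 850 and 1790 bp. The longer core AAGATGGC, which overlaps it in 5 letters and was added after seeing the data with this locus in mind, matched 10 times in the 3 regions. All 10 matches were on the plus strand of the genome, opposite to the strand of the gene, and 9 of them touched a footprint in both pools. Over all shared regions the core matched at 1963 sites, of which 23.8% touched footprints of both pools. In the 7826 shared regions with a mean signal of at least 3.90, as strong as the weakest of these 3, it was 38.9% of 440 sites. Those regions were not matched to the Peg3 regions for the number of footprints. At least 4 matches in 1 region were found in 2 of 96584 shared regions, and both are the Peg3 regions at 1790 and 2730 bp. The sites are shown because their repeated letters extend beyond the core searched, often into a following g. Each line is named by its distance in bp downstream of the Peg3 TSS and gives the plus strand of mm10, with the core in capitals. The site at +2484 is the one outside footprints in both pools. An overlap of 1 bp was enough to touch a footprint. At +2454 and +935, the footprints touched in replicate 1 and in replicate 2 did not overlap each other.
Peg3 +2995: gtggccaacaAAGATGGCgccagagggagg
Peg3 +2573: atgacaagtaAAGATGGCgcccaggtgggc
Peg3 +2484: gctgtcattcAAGATGGCtactgcaccaga
Peg3 +2454: aacgtcagcaAAGATGGCgtcaggtgggca
Peg3 +2016: cctgtcattcAAGATGGCgtctgcaccata
Peg3 +1967: attgctggcaAAGATGGCgccaaattgggc
Peg3 +1679: tcagccagcaAAGATGGCgtcagggtaggt
Peg3 +1538: ttggccaggaAAGATGGCgccaggatgggc
Peg3 +935: cggtcatttcAAGATGGCgccaagcgggct
Peg3 +829: tccaccctccAAGATGGCgccaactgggtg

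**Figure D2:**
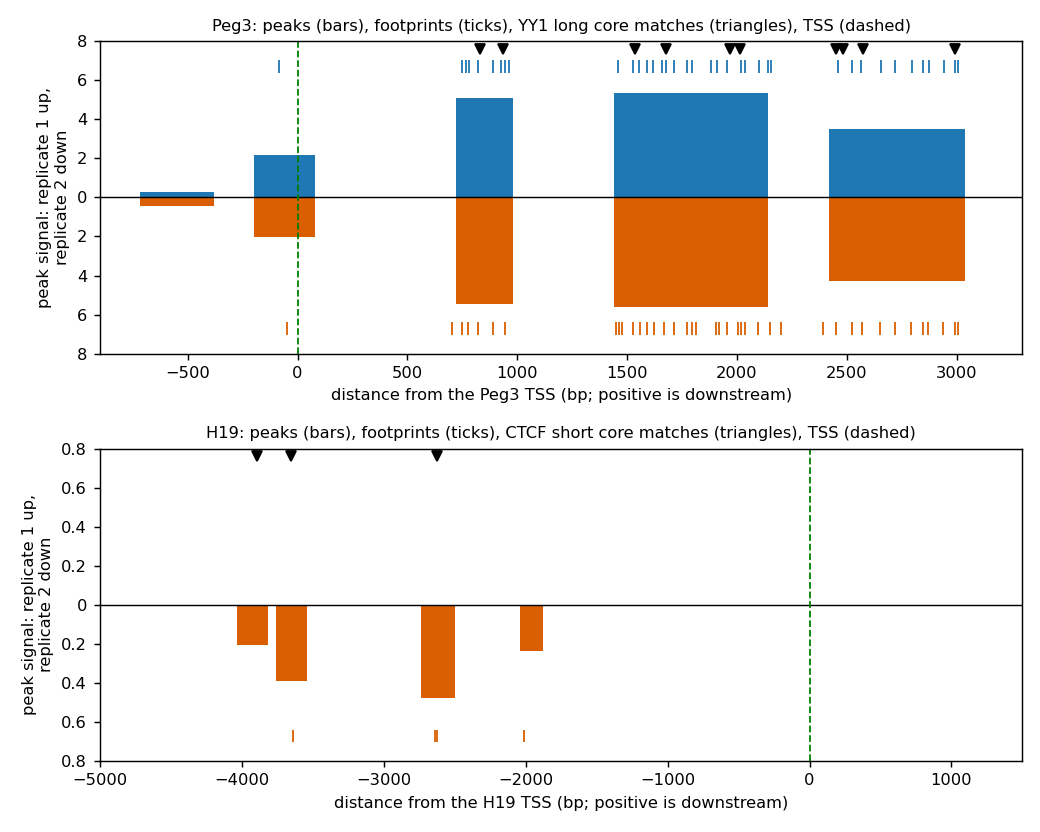
Peak signal (bars, replicate 1 upward and replicate 2 downward, the authors' unit) against distance from the TSS in bp around Peg3 (top) and H19 (bottom); ticks are footprints, triangles are matches of the YY1 long core or the CTCF short core, and the dashed line is the TSS. Peg3 has 3 intronic regions in both pools with 10 matches, and H19 has 4 upstream peaks in replicate 2 alone with 3 matches.

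Control regions marked in the egg coincide with a promoter of 17 members, Peg3 and the internal promoter of Inpp5f included. At any of their TSSs, 15 of the 17 (88.2%) had a peak in both pools, against 33.6% of all genes. The 17 are protein-coding and lncRNA genes, for which the shares were 61.9% and 26.5%. Snrpn and Snurf, and Peg10 and Sgce, which share a peak, are counted separately among the 17. The median of the highest signal was 1.86 over the 17. That signal need not lie at the marked promoter. It was at the first TSS for Inpp5f, at the upstream TSS for Grb10, and for Gnas at its last promoter, which is active on both copies in most tissues. Of the noncoding RNAs among the 17, 3 had a TSS peak in both pools. Kcnq1ot1, whose transcription silences the Kcnq1 domain, had 4.90 in replicate 1 and 6.03 in replicate 2. Airn, which silences Igf2r, had 1.87 and 2.65. Peg13, a noncoding RNA inside Trappc9, had 3.26 and 3.90. By the mean of the pools, all 3 stood above the median of 1.84 over the 3540 lncRNA genes with a TSS peak in both.

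Among protein-coding genes of the same kind the levels were spread. Zrsr1, a retrogene for a splicing factor subunit, had 3.06 in replicate 1 and 3.80 in replicate 2. Impact, a regulator of the amino acid response, had 2.79 and 3.29, and a stronger region in an intron, 1428 bp downstream of its TSS, with 4.99 and 5.06. That intronic region held 14 and 12 footprints, a number reached by 0.0735% of shared regions in replicate 1 and 0.306% in replicate 2. Peg10, which derives from a retrotransposon, and Sgce, a sarcoglycan gene, share a divergent promoter with 1.37 and 2.36. As in Peg3 and Impact, the strongest region near Peg10 lay inside the gene, 1835 bp downstream, with 5.94 and 6.37. Plagl1, a growth-restraining zinc finger gene, had 1.23 and 1.73. Mest, a hydrolase-fold gene, had 1.05 and 1.79. Snrpn, a splicing protein gene that shares its promoter with Snurf, had 0.944 and 1.14. Grb10, an adaptor that dampens insulin and growth factor signalling, had 0.513 and 0.815 at its upstream promoter. Grb10 was the lowest of those named in both pools.

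At 2 genes of this kind a TSS peak was missing in a pool or in both. Nespas, the antisense RNA of the Gnas locus, had a peak of 0.386 in replicate 1 alone. It lay at the furthest downstream of its 3 annotated TSSs, and the upstream ones had no peak in either pool. Nnat, a small membrane protein gene of brain and endocrine cells, had none at its TSSs. A region 1231 bp downstream of Nnat, in its exon, had 2.38 and 2.81. Blcap, the gene that holds Nnat in an intron, had 2.33 and 3.57.

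The promoters of Kcnq1ot1, Plagl1, Meg3 and Ndn are shown because their letters can be read against the footprints. RefSeq promoters on GRCm38.p6, from 250 bases before the start to 50 after, were on file for 38 of the 51 members. Each line is 5′ to 3′ on the strand of the gene, and capitals mark bases inside footprints of both pools. Kcnq1ot1 had 105 of 300 bases in such footprints, the other 3 had between 11 and 31. CCAAT, the letters bound by NF-Y, matched 3 times in the Kcnq1ot1 promoter, and the first and second matches can be read whole in capitals. On either strand, CCAAT was found in 18 of the 56 member promoters and in 37.4% of all 32851 promoters of the table.
Ndn: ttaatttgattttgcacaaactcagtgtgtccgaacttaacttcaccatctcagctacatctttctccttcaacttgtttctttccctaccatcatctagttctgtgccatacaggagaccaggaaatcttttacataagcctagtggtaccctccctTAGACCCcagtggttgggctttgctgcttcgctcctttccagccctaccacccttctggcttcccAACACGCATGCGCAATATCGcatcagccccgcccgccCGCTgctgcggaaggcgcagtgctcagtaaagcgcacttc
Kcnq1ot1: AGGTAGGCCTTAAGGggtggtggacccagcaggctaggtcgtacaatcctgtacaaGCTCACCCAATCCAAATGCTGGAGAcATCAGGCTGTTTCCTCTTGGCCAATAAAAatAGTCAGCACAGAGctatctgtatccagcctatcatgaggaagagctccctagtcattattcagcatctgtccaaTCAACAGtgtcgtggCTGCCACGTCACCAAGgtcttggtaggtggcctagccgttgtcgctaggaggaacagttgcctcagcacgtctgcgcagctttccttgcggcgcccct
Plagl1: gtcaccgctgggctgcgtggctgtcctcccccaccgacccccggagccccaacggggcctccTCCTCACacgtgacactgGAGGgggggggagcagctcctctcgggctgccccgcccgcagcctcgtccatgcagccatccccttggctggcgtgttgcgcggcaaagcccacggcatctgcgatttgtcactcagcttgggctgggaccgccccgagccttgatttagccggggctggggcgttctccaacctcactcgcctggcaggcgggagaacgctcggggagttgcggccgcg
Meg3: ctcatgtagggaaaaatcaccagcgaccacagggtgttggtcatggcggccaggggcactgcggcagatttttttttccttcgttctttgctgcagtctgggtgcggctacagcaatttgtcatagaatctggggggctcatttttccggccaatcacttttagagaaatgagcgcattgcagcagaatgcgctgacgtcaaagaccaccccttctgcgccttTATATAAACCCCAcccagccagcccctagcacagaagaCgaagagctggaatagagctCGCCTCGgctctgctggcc

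Control regions marked in the sperm lie upstream of 4 members. H19, a maternally expressed noncoding RNA, had no peak, no footprint and no base listed at a false discovery rate (FDR) of 0.05 or less within 1 kb of its TSS in either pool. Upstream of it, in the stretch known as the control region of H19 and Igf2, replicate 2 had 4 weak peaks, centred on -1958, -2618, -3648 and -3928 bp relative to the TSS. Their signals were 0.240, 0.480, 0.392 and 0.208, and the footprints listed in them in replicate 2 numbered 1, 2, 1 and 0. Replicate 1 had no peak, no footprint and no listed base in any of these. The lowest FDR listed in replicate 2 was 2.51e-09, in the peak at -2618 bp. All 4 were below the median peak signal of 0.727 in replicate 2, the pool with more peaks.

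CTCF, an insulator protein, is known to bind the unmethylated maternal copy there and to keep Igf2 from enhancers beyond H19. A short part of the CTCF motif, GGNGGCAG on either strand, matched once in 3 of the 4 peaks, and 1 match lay in a footprint of replicate 2. It was present in 12.7% of 301 bp windows at the middle of all regions of either pool. The ZFP57 motif TGCCGC, read by the zinc finger protein that keeps imprints, matched in 3 of the 4, against 7.17% of all such windows. These motifs can overlap, since the CTCF letters with C in the free place contain the ZFP57 letters on the other strand. The 3 CTCF matches are shown on the minus strand of chromosome 7, the strand of H19, with the matched letters in capitals and the distance from the TSS in the name. All 3 have the letters ccgc before the match, which the CTCF search did not use. At -3650 and -3894 these letters are part of a ZFP57 match.
H19 -2624: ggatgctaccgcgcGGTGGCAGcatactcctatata
H19 -3650: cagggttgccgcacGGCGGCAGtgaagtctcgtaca
H19 -3894: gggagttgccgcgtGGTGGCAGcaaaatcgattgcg

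Igf2 and Ins2, the growth factor and insulin genes of the same locus, had weak TSS peaks. Igf2 had a peak of 0.372 in replicate 1 alone, at 1 of its 5 TSSs, and no footprint. Ins2 had 0.416 in replicate 1 and 0.488 in replicate 2. The strongest region within 50 kb of a member of this locus overlapped the TSS of the ribosomal protein gene Mrpl23, with 1.68 and 1.91.

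The Dlk1 and Dio3 locus on chromosome 12 had 28 shared regions within 50 kb of a member. Meg3 had 1.55 in replicate 1 and 2.10 in replicate 2 at its promoter, and 2.69 and 3.61 in an intronic region 2054 bp downstream. Rian, a host of small nucleolar RNAs, had 0.817 and 1.46 at 1 of its 14 TSSs and a stronger intronic region at -4736 bp from that TSS, with 3.49 and 3.77. Mirg, a host of microRNAs, had no TSS peak, but the strongest region of the locus lay 12141 bp downstream of its nearest TSS with 4.24 and 6.46. Of the paternally expressed genes, Dlk1, a membrane ligand of progenitor cells, had a peak of 1.24 in replicate 2 and none in replicate 1, where 0.533% of its TSS windows was listed at an FDR of 0.05 or less, against 11.6% in replicate 2. Only 1.69% of the 46452 regions found in replicate 2 alone had as much signal. Upstream of Dlk1, a region at -34938 bp was open in both pools with 2.99 and 3.94, and one at -14938 bp with 1.97 and 3.01. Rtl1, a retrotransposon-derived gene, had no TSS peak. Dio3, which inactivates thyroid hormone, had 1.45 and 1.77.

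Rasgrf1 and Zdbf2 have sperm-marked control regions farther upstream. Rasgrf1, an exchange factor for Ras, had 0.646 in replicate 1 and 1.03 in replicate 2. A stronger region lay at -35247 bp from its TSS, with 3.49 and 3.81. Zdbf2, a zinc finger gene of growth control, had the lowest shared TSS signal of all members, 0.245 and 0.488, and the strongest region near it, at -46244 bp, had 0.379 and 0.568.

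The remaining members have no control region at their own promoter. In the Kcnq1 domain, Cdkn1c, an inhibitor of cyclin-dependent kinases, had 2.98 in replicate 1 and 3.31 in replicate 2. Cd81, a tetraspanin gene, had 2.64 and 3.02. Kcnq1, a potassium channel gene, had 0.602 and 0.624. Phlda2 and Ascl2, which restrain and drive growth of the placenta, were low too. Phlda2 had 0.461 and 0.735. Ascl2 had 0.401 and 0.600. Slc22a18, a transporter gene, had 0.943 in replicate 2 alone. With Nap1l4 and Tssc4, the promoters of this domain spanned most of the range of the set.

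Elsewhere, Copg2, a coat protein gene of the Golgi beside Mest, had 4.64 in replicate 1 and 5.16 in replicate 2. Commd1, a copper and NF-kappaB regulator around Zrsr1, had 4.02 and 5.54. Igf2r, the receptor that clears IGF2, had 1.32 and 1.85. Zim1, a zinc finger gene beside Peg3, had 1.75 and 2.62. Asb4, a component of ubiquitin ligases, had 1.39 and 1.77, and Ppp1r9a, which binds protein phosphatase, had 0.788 and 1.31. Sfmbt2, a polycomb group gene, had 0.550 and 0.775. Klf14, a transcription factor gene without introns, had 0.344 in replicate 2 alone.

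In the Snrpn domain, Mkrn3, a zinc finger gene linked to puberty in human, had 0.929 in replicate 1 and 1.68 in replicate 2. Magel2, a regulator of protein sorting, had 0.376 in replicate 2 alone. Ndn, the gene of necdin, had no peak at the TSS of the GENCODE set used, but the RefSeq start lies inside that gene model. The RefSeq promoter of Ndn, at chr7:62348027-62348326, met a region with 1.45 and 2.17, and held 4 footprints in replicate 1 and 3 in replicate 2. The absence of a TSS peak at Ndn therefore depends on the annotation. Counting all 51 members by the GENCODE rule, 5 had no TSS peak in either pool (H19, Ndn, Rtl1, Mirg and Nnat), 4 had one in replicate 2 alone and 2 in replicate 1 alone. None of the 5 had a base listed at an FDR of 0.05 or less in its TSS windows.

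Several members have promoters with different imprints, and their signals differed within the gene. Gnas, the gene of the stimulatory G protein alpha subunit, has 7 annotated TSSs at 4 places. From upstream to downstream these are known as the Nesp, XL, exon 1A and Gs-alpha promoters. The Nesp promoter had 0.468 in replicate 1 and 0.783 in replicate 2. The XL promoter had no peak in either pool. The exon 1A promoter had 1.58 and 2.06. The Gs-alpha promoter, which is active on both copies in most tissues, was highest with 1.98 and 2.87. The strongest region of the locus, 13994 bp downstream of the last of these, had 3.77 and 4.32. At Grb10, only the upstream TSS had a peak, and the next one downstream had none, with a region 2060 bp beyond it at 0.825 and 1.41. At Inpp5f, the internal TSS that is imprinted had 1.05 and 1.30, far below the main promoter. The order of the TSSs was the same in both pools at all 3 genes.

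**Figure D3:**
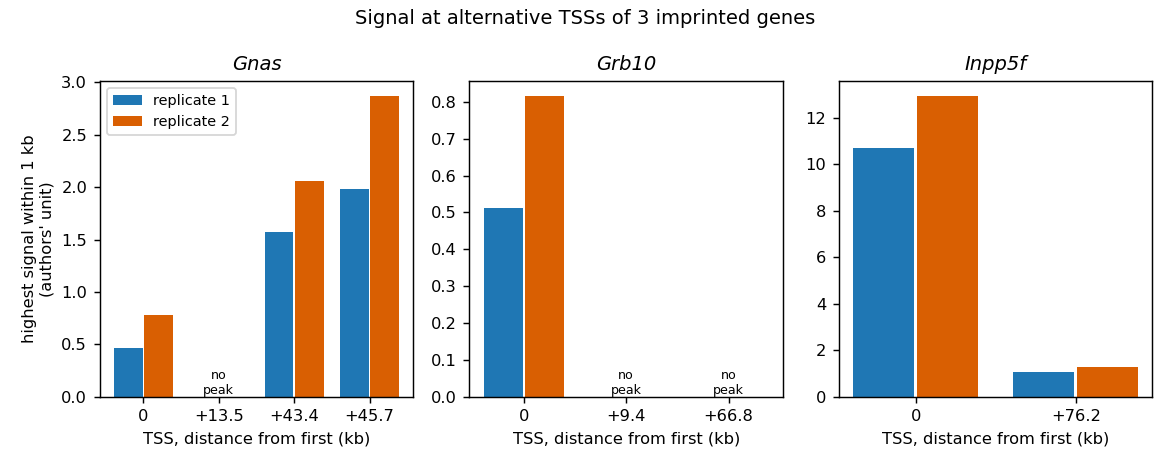
Highest peak signal within 1 kb (vertical axes from 0, the authors' unit, with a scale for each gene) at separate TSSs of Gnas, Grb10 and Inpp5f, by distance from the first TSS in kb; bars are replicate 1 and replicate 2. The XL promoter of Gnas and 2 TSSs of Grb10 have no peak, and the internal TSS of Inpp5f has 1.05 and 1.30 beside 10.7 and 12.9 at the first.

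The CpG content of promoters divides genes by how often they are open, so members were also set beside genes of their own class. Each gene was classed at the TSS whose surrounding 1001 bp had its highest ratio of observed to expected CpG, and was called CpG-rich where those bases had at least 55% G and C and a ratio of at least 0.65. Of the CpG-rich protein-coding members 22 of 26 (84.6%) had a TSS peak in both pools, against 93.4% of CpG-rich protein-coding genes. Of the CpG-poor ones 13 of 17 (76.5%) had one, against 41.4% of CpG-poor genes. Inpp5f is CpG-poor by this rule, from its internal TSS, although its first TSS passes both limits. Where any TSS of a gene could pass, a rule added after seeing the data, Inpp5f was the 1 member that changed class. Then 23 of 27 CpG-rich members (85.2%) had a TSS peak in both pools, against 93.4% of 8754 genes, and 12 of 16 others, against 40.9% of 13157 genes. The classes do not match members and genes in CpG content. By the first rule, the median ratio was 0.562 over CpG-poor members and 0.315 over CpG-poor genes. Peg3 and Usp29, and Snrpn and Snurf, which share a peak, are each counted as separate CpG-poor members. Likewise, Peg10 and Sgce are counted as separate CpG-rich members. Under both rules the share of members was above that of the class for CpG-poor promoters and below it for CpG-rich ones.

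The levels differed in the same way. The median TSS signal, as the mean of the pools, was 1.45 over the 26 CpG-rich members and 4.05 over all 8636 CpG-rich genes. Of these members, 22 were below the median of the class and 18 below its lower quartile of 1.88. Peg10 and Sgce, which share a peak, are counted separately here and in the counts that follow. Their mean signal of 1.86 lay just below the lower quartile. The exceptions above the median were Nap1l4, Tssc4, Ube3a and Copg2, and Inpp5f as well where any TSS could pass. Of the CpG-rich members with an egg-marked control region at a promoter, 7 of 7 were below the median of the class, or 7 of 8 with Inpp5f, whose highest signal is at its first TSS and not at the imprinted internal one. These are the highest signals over all TSSs of a gene and need not lie at the marked promoter. That of Gnas was at the Gs-alpha promoter, active on both copies in most tissues, and that of Grb10 at its upstream TSS. In the CpG-poor class the median was 1.58 over 17 members and 0 over 13275 genes, and 1.44 over 16 members without Inpp5f. Members were chosen with earlier results known and share loci, so these are descriptions.

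**Figure D4:**
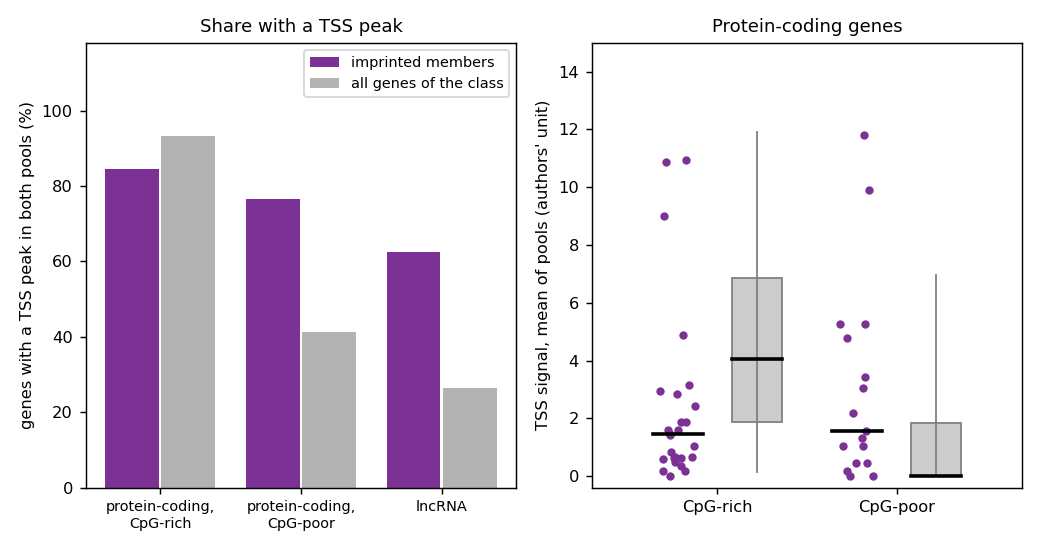
Left, percent of genes with a TSS peak in both pools for imprinted members (purple) and all genes of the class (grey); right, TSS signal as the mean of the pools (the authors' unit), with 1 point per protein-coding member, and for all genes a box from the lower to the upper quartile with a line from the 5th to the 95th percentile. Thick lines are medians, which are 1.45 for CpG-rich members, 4.05 for CpG-rich genes, 1.58 for CpG-poor members and 0 for CpG-poor genes.

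By the allele that is expressed, 20 of 24 maternally expressed members (83.3%) and 20 of 27 paternally expressed members (74.1%) had a TSS peak in both pools, against 33.6% of all genes. Both groups hold protein-coding and lncRNA genes, for which the shares were 61.9% and 26.5%. The median of the mean signal was 1.71 over maternally expressed and 1.30 over paternally expressed members. CpG-rich members made up 62.5% of the maternally and 44.4% of the paternally expressed ones. The pairs with a shared peak, Peg3 and Usp29, Snrpn and Snurf, and Peg10 and Sgce, are all paternally expressed. A link between signal and expressed allele was not tested. The median share of the TSS windows listed at an FDR of 0.05 or less was 25.8% over all members, against 0 over all genes, and 32.7% over protein-coding members, against 23.3% over protein-coding genes.

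Beyond the promoters, the median member had 4 distal regions shared by the pools in its 50 kb surroundings, against 3 for the median gene and 4 for the median CpG-rich protein-coding gene. Members have more start sites, which widens the stretch counted, and neighbouring members can count the same regions. Distal means more than 1 kb away from all TSSs. Airn had the most, 13, and Snrpn, Snurf and Copg2 had 0. In all, 449 regions lay within 50 kb of a member TSS, and 258 were shared by the pools. The strongest of all was intergenic, at -6437 bp from the Trappc9 TSS and chr15:73067441-73067840, with 15.1 in replicate 1 and 15.6 in replicate 2. In the Igf2r locus the strongest was in an intron of Airn with 2.62 and 4.19, in the Grb10 locus in an intron 4711 bp below the last TSS with 2.04 and 2.58, and in the Sfmbt2 locus at -19229 bp with 0.721 and 1.12. At other loci the strongest region overlapped the TSS of a gene that is no member. It was that of Cep41 near Mest with 5.24 and 7.89, and that of Cct4 near Commd1 with 5.06 and 5.96.

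The full CTCF consensus, searched on both strands, matched 12 sites in the shared regions near members, and 10 of them (83.3%) touched footprints in both pools. Over all shared regions the share was 78.3% of 3661 sites, so the share near members was close to the background. In shared distal regions near members 6.17% of 301 bp windows held the motif, against 4.58% of all. Of the 10, 2 sites each had Cdkn1c, Magel2 or Usp29 as the nearest member. These 6 are shown on the strand of the match, with the motif in capitals and the distance from the nearest annotated TSS of the gene in the name. The grouping rests on the nearest member and on footprints in both pools. A further match at chr7:62400287-62400300, nearest to Mkrn3 and on the same strand as those of Magel2, touched a footprint in replicate 2 alone. At Cdkn1c the 2 sites lay in regions with midpoints at -3171 and -5451 bp, with 1.65 and 1.40 in replicate 1 and 2.20 and 1.82 in replicate 2. Both sites shown for a gene have the same orientation. Those of Usp29 lie inside the gene. Their distances are from an internal TSS that had no peak in either pool, and not from the promoter shared with Peg3.
Usp29 -29137: gcaagctgCCAGTAGAGGGCACccgcgatc
Usp29 -10282: gtcatcggCCAGCAGGTGGCGCacatagga
Magel2 -1162: gaaagaaaCCACTAGGGGGCAGaagagaat
Magel2 +5597: ctagttggCCAGTAGGTGGCAGaaaagttc
Cdkn1c -3034: caagtcggCCACCAGGGGGCAGcatgaagc
Cdkn1c -5452: gtctctgaCCACCAGGGGGCAGaatgactc

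NR5A1 (steroidogenic factor 1), the main regulator of steroid-producing cells, has the motif TCAAGGTCA. It was found on either strand in 1.85% of shared distal windows near members, 3 of 162, against 2.76% of all. The strongest region with a match lay at -2688 bp from the Cd81 TSS, in an intron of R74862, at chr7:143049941-143050160. It had 4.26 in replicate 1 and 6.82 in replicate 2, more than the Cd81 promoter in both pools. The match touched a footprint in each pool, and its surroundings are shown on the minus strand with the motif in capitals.
Cd81 -2685: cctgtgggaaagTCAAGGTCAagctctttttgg

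The pools were compared at the 40 members with a TSS peak in both, which leaves out those with a peak in 1 pool alone. All 40 had more signal in replicate 2. Among them, Rasgrf1 and Phlda2 had footprints within 1 kb of a TSS in replicate 2 alone, 8 and 4. Over all 51 members, the median share of the TSS windows listed at an FDR of 0.05 or less was 20.6% in replicate 1 and 33.9% in replicate 2. On the log2 scale, replicate 2 over replicate 1 had a median of 0.40 at members, with a range from 0.05 to 0.99, and of 0.35 over all shared regions. Of the 40, 20 were above that median. The members with a peak in 1 pool alone were weak, with signals from 0.344 to 0.386, except Slc22a18 and Dlk1.

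**Figure D5:**
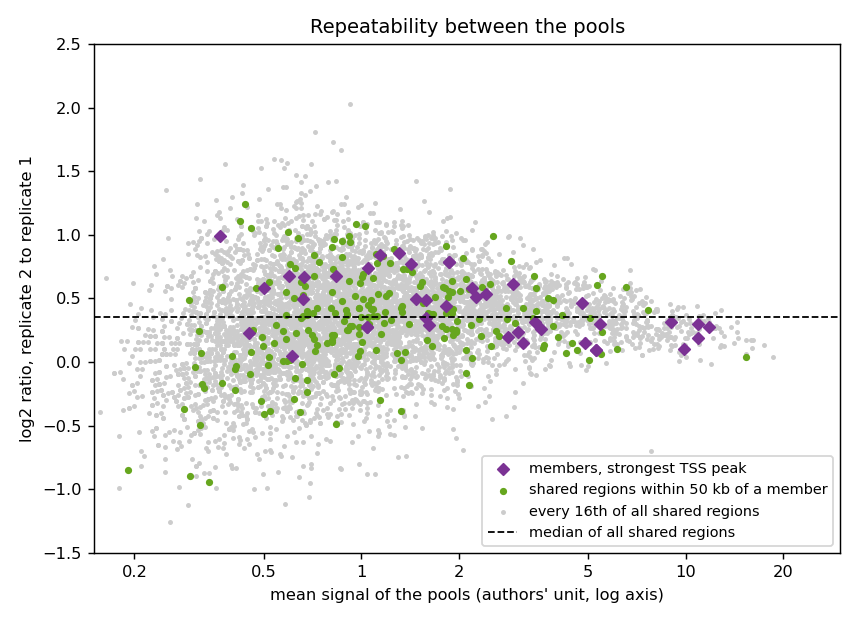
Log2 ratio of replicate 2 to replicate 1 (vertical axis) against the mean signal of the pools (horizontal log axis, the authors' unit) for members at their strongest TSS peak (diamonds), shared regions within 50 kb of a member (green) and every 16th of all shared regions (grey); the dashed line is the median of all shared regions, 0.35. Members lie on both sides of the line, between 0.05 and 0.99.

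Of 20 genes that keep or read imprints, 18 had a TSS peak in both pools (90.0%), against 61.9% of all protein-coding genes and 93.4% of CpG-rich ones. The highest were Kdm1b, a histone demethylase of the oocyte, with 9.85 in replicate 1 and 11.0 in replicate 2, Yy1 with 7.19 and 9.61 and Rad21, a cohesin subunit, with 6.54 and 7.51. Dppa3 and Ctcfl, which act in germ cells and the early embryo, had none. Of 14 partners of IGF2 signalling, 9 had a peak in both pools (64.3%), near the 61.9% of all protein-coding genes, and the highest were Irs2 with 4.96 and 7.23, Insr with 3.82 and 5.12 and Igf1r with 3.02 and 4.28. Igfbp1, Igfbp6 and Igf2bp3 had none, and Igf1 and Igfbp3 had one in replicate 2 alone. Of 27 other genes reported as imprinted, 17 had a peak in both pools (63.0%), against 33.6% of all genes and 61.9% of protein-coding genes, led by Dhcr7 with 12.6 and 14.5, Mcts2 with 4.66 and 5.12 and Ago2 with 3.64 and 5.17. Calcr, Slc22a3, Tspan32, Zim2, Zim3, Htr2a and Kcnk9 had none, Dcn and Slc38a4 had one in replicate 1 alone, and Cobl in replicate 2 alone.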

How the data were processed

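DNase-seq was read in 2 pools of adrenal gland. Per the labels and the deposited text files, peaks were derived from the filtered alignments of each library on mm10, without pooling the replicates. No source used here gives the peak caller, its threshold or the scaling. The authors' signal per peak is a level in their own unit, with no depth, so no counting interval could be given. The deposited FDR values (a form of p-value or q-value) list only intervals under 0.05, and the footprint lists carry 0.01 in every row.

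Each gene took the highest signal among peaks that overlap the 1 kb on either side of any of its TSSs (77221 in GENCODE release M21, basic set). Shared regions are peaks of the pools that overlap by at least 1 bp. Motifs were matched by letters on both strands. Scripts used Python 3.11.15, numpy 2.4.6, pandas 2.3.3 and pysam 0.24.0, and were tested on simulated data. The members, lists and motifs were chosen with earlier results of these data known. All 51 members are accounted for. The strongest region within 50 kb was named per locus, and for each list the 3 highest genes and those without a peak. The pools are 1 group, so no test was run. Alternatives covered the peak list, the signal threshold, the windows, the FDR, the TSS that sets the CpG class and each pool alone.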

Additional observations from a re-analysis of the deposited data

How the results depend on the processing

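Of 44 alternative values, 37 moved by less than the spread between the pools or stayed within 1.5 times of the count. The spread was taken from the values of each pool alone, which are among the alternatives, so the 37 are no independent measure of stability. Leaving out weak peaks could hardly change the median TSS signal of members, which stayed at 1.48. The members with a TSS peak in both pools ran from 32 with the shorter peak lists to 44 within 2 kb, and were 42 in replicate 1 alone and 44 in replicate 2 alone. The median of 4 shared distal regions was 2 with the shorter peak lists, 2 with the stronger 50% of the peaks, 2 within 20 kb and 8 within 100 kb, and ran from 5 to 7 with a single pool. The median share of the TSS windows listed by FDR, 25.8%, was 14.6% at an FDR of 0.001 or less and 40.4% within 500 bp, and the cause was not tested. No paired analysis was possible because both replicates belong to 1 group. Depth is unknown, so weak peaks in a single pool could not be set against counting error.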
